A study of Rattus norvegicus with 6 samples.

Results

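Fatty acid oxidation genes and target genes of the peroxisome proliferator-activated receptors (PPARs) were followed in young kidneys of the Han:SPRD Cy rat, a model of inherited polycystic kidney disease. The set was a fixed list of 42 genes, and a probe belonged to it when the gene name on the array matched a listed name. By that rule 39 of the 42 genes had a probe, with 51 of the 41012 probes and among 35581 gene names on the array. Cyp4a1, Acot1 and Acot2 had none under those names. Kidney RNA was pooled within a genotype and an age, at 3 and at 7 days of age. Han:SPRD rats without the Cy mutation are written +/+, those with 1 copy Cy/+ and those with both copies Cy/Cy. Each pool was labelled with Cy5 and hybridised once against a Cy3-labelled pool from +/+ rats of its own age, which gave 6 arrays and 2 arrays for each genotype. The number of animals in a pool was not given in the sources used here, dyes were not swapped, and p-values therefore measure only the spread between these arrays. All groups were Han:SPRD rats with food and water at will, and only the left kidney went into RNA. The title of the study points to signalling through RXR, the obligate partner of the PPARs on DNA.

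Cells burn long-chain fatty acids in a chain of steps. Fatty acids are taken up and bound, activated to acyl-CoA, carried into mitochondria by the carnitine shuttle and shortened there by beta-oxidation, whose electrons pass through the electron transfer flavoprotein to the respiratory chain. Peroxisomes shorten very long chains by enzymes of their own. PPARA, PPARD and PPARG are fatty acid-sensing nuclear receptors that bind DNA with RXR and switch on many of these genes, and the proximal tubule of the kidney relies on fatty acids for its energy.

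Where a probe spans an exon junction it reads spliced RNA. Of the 39 probes that stand for the members, 8 mapped across more than their own 60 bases of genome. The junction probes of Cd36 (rn3 chr4:13518295-13519542, plus strand) and of Pdk4 (rn3 chr4:30283045-30284933, minus strand) are shown. Cd36 met the threshold in Cy/+ against the reference. The p of Pdk4 for the age difference in ratio was among the smallest of the members, but did not meet the threshold.
Cd36 probe: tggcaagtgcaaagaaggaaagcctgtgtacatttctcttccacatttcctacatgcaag
Pdk4 probe: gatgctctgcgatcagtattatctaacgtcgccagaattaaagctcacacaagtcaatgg

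Promoters are shown for members whose ratios moved together with age, taken as the 250 bases before the RefSeq start of the gene in build GRCr8. RefSeq sequences were at hand for 35 of the 42 members, and Vnn1 was not among them. The windows lie at chr7:15258682-15258931 (minus strand) for Angptl4, chr1:143096492-143096741 (minus strand) for Pex11a, chr11:92746159-92746408 (plus strand) for Ehhadh and chr10:55236706-55236955 (minus strand) for Acadvl. Capitals mark AGGTCA, the hexamer that nuclear receptors of this class bind. The Hadha window at chr6:31907551-31907800 (plus strand) is given because it shares 200 bases with the window of Hadhb on the opposite strand, so the genes of both subunits of the mitochondrial trifunctional protein start back to back.
Angptl4 promoter: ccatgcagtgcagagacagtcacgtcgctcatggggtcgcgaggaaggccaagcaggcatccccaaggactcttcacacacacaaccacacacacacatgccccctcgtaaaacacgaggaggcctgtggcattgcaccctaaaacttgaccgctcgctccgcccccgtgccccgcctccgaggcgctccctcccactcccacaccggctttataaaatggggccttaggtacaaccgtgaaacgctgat
Pex11a promoter: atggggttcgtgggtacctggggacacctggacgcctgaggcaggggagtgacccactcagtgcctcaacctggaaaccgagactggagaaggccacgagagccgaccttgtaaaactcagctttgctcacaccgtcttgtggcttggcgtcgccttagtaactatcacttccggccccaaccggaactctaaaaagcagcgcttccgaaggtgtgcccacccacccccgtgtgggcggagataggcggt
Ehhadh promoter: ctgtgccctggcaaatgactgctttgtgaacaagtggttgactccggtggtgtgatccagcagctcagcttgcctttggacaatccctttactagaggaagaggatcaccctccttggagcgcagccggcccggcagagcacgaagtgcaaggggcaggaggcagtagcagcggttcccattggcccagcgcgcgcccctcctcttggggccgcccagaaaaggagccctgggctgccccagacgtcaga
Acadvl promoter: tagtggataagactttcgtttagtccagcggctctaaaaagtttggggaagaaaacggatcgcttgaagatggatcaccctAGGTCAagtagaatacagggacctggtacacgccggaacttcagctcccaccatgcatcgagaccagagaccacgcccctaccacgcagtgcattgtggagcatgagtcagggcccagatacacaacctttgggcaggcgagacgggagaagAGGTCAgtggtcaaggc
Hadha promoter: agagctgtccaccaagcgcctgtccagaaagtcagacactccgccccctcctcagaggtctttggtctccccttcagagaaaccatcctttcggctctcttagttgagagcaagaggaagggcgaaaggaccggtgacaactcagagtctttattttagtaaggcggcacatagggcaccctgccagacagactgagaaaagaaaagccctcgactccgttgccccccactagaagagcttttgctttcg

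The PPAR-RXR pair binds a direct repeat of that hexamer with 1 base between the copies. The repeat AGGTCANAGGTCA was searched on both strands and was in 0 of the 35 member windows and in 0.0508% of the 33469 windows of that length in the table. With the fourth base of each hexamer open (AGGNCANAGGNCA, which includes the first motif) the count was again 0 of 35, against 0.368% of all windows. The hexamer alone, which both repeats can contain, was in 4 of 35 (11.4%, against 14.1% of all), in the windows of Acadvl, Hsd17b4, Eci1 and Ucp3. Counted from the gene start, it began at -169 and -17 in Acadvl and at -56 in Hsd17b4. A match is a description of the letters, and these windows leave out introns and distant sites.

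Each array had 43379 spots besides controls, of which 65.0% to 70.0% were well above background in Cy3 and 66.8% to 74.8% in Cy5. The number of arrays limits the precision. Values below are log2 ratios of Cy5 over Cy3, so that 1 is a doubling over the age-matched +/+ reference, after correction for background and for intensity (loess) within each array. A probe was tested when at least 2 of the 4 arrays of mutant pools had it well above background in one of the channels (28297 probes). That held for 37 of the 39 members with a probe, and Acsl6 and Ucp3 did not pass. The arrays labelled +/+ stood far from their own reference, with an SD of the log2 ratio over probes of 0.939 at 7 days and more at 3 days, against 0.156 to 0.317 on the 4 mutant arrays. Their Cy5 channel was also high in markers of other tissues and low in markers of the proximal tubule, so they are called the arrays labelled +/+ and given apart. On all 4 mutant arrays the 15 proximal tubule markers were well above background in both channels. All 3-day arrays lay on 1 slide and all 7-day arrays on another, so age and slide cannot be told apart, nor can genotype and position on the slide.

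The first comparison asked which members differed between each mutant and its +/+ reference. In Cy/+ pools, 2 of the 37 members passed at an adjusted p of 0.05 (limma, Benjamini-Hochberg over all probes), both higher than the reference. Of all probes, 9.78% passed (5.67% higher and 4.11% lower), so the members' share was not above the background. These were the uptake and binding genes Cd36 and Fabp3. In Cy/Cy pools 0 of 37 passed, and of all probes 0.00707% did, with 2465 probes at an unadjusted p under 0.05. The median of the 37 members was -0.02 in Cy/+ and -0.00 in Cy/Cy, against 0.00 and 0.01 for all probes.

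**Figure D1:**
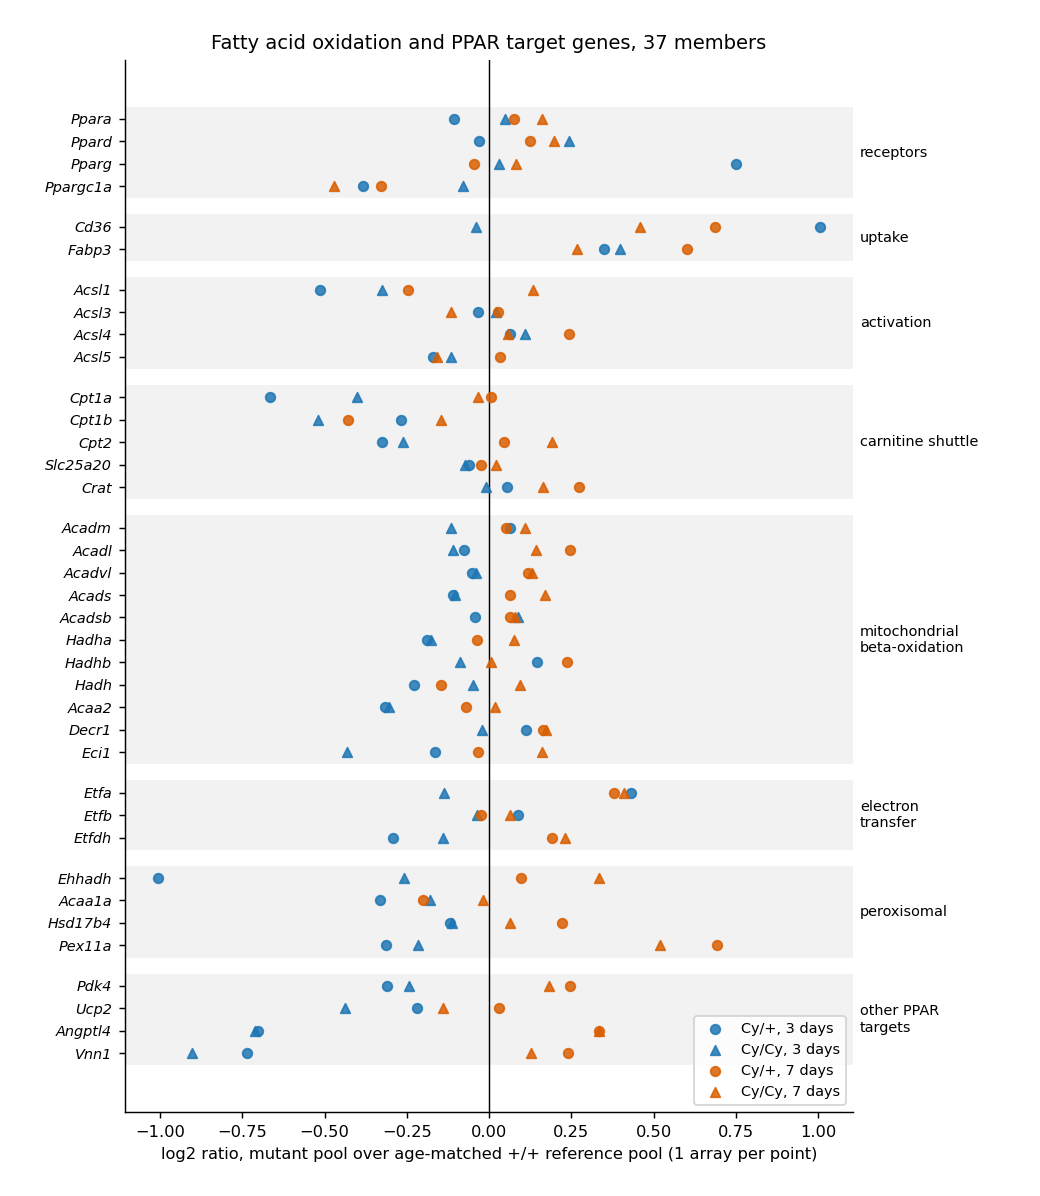
Log2 ratio of each mutant pool over the age-matched +/+ reference for the 37 members measured on the mutant arrays, by role, with 1 array per point, circles for Cy/+, triangles for Cy/Cy, blue for 3 days and orange for 7 days. Cd36 and Fabp3 lie to the right, and in the peroxisomal genes and the other PPAR targets the 3-day points lie to the left of the 7-day points for most genes.

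Cd36 encodes the scavenger receptor that takes up long-chain fatty acids. Its log2 ratio was 1.00 at 3 days and 0.68 at 7 days in Cy/+, and -0.04 and 0.46 in Cy/Cy. Both Cy/+ arrays were above both Cy/Cy arrays. The Cy/+ mean was 0.84 ± 0.13 (SE, n = 2 arrays, 1.80-fold, limma adjusted p = 0.0200). Cd36 did not pass without the 3-day Cy/+ array (0.68, limma adjusted p = 0.0699) or with the scanner software's log ratio (0.95, limma adjusted p = 0.0569). Cd36 is also abundant in fat cells, so adipose markers are given beside it. On the Cy/Cy arrays the median log2 ratio of the adipose markers was 0.58 at 3 days and 0.20 at 7 days. Cd36 was at -0.04 and 0.46 on those arrays. On the 3-day Cy/+ array the summed level of the 8 adipose markers with a probe was 13030 in Cy5 and 2906 in Cy3, and their median log2 ratio was 1.74. On the 7-day Cy/+ array the sums were 1644 and 1827 and the median was -0.06. Lep and Adrb3 were not well above background in Cy5 on either array. The ratio of Cd36 on the 7-day Cy/+ array was 0.68. The part of adipose RNA in the Cd36 ratios was not tested. In bulk RNA, fewer cells of a type and less RNA per cell cannot be told apart.

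Fabp3, a cytosolic fatty acid carrier abundant in heart and muscle, had log2 ratios of 0.35 and 0.60 in Cy/+ at 3 and 7 days. In Cy/Cy they were 0.40 and 0.27. All 4 mutant arrays were above the reference. The Cy/+ mean was 0.47 ± 0.09 (SE, n = 2, 1.39-fold, limma adjusted p = 0.0297) and the Cy/Cy mean 0.33 ± 0.09 (limma adjusted p = 0.475). In Cy/+ Fabp3 did not pass without the 7-day array (0.35, limma adjusted p = 0.0907), with the software's log ratio (0.49, limma adjusted p = 0.0783) or with scaling between arrays (0.43, limma adjusted p = 0.0561).

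The receptors themselves stayed close to the reference on most arrays. Ppara ranged from -0.11 to 0.16 and Ppard from -0.03 to 0.24 over the 4 mutant arrays. Pparg, the receptor that drives fat cell differentiation, was at 0.75 on the 3-day Cy/+ array, where the adipose sum was high, and between -0.05 and 0.08 on the other 3. Ppargc1a, the coactivator that promotes mitochondrial biogenesis, was below the reference on all 4 arrays, at -0.39 and -0.33 in Cy/+ and -0.08 and -0.47 in Cy/Cy, and its Cy/+ mean of -0.36 ± 0.10 (SE, n = 2) did not pass (limma adjusted p = 0.0743).

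Arrays of one age share a slide and a reference label, so age can be taken as a block. With age as a term, 8 members passed in Cy/+, against 19.3% of all probes, and 0 in Cy/Cy, against 0.226%. The Cy/+ share of the members was near that background. The fit with age left fewer residual degrees of freedom than the 2 of the fit without it. Higher were Cd36 and Fabp3 again and Etfa (0.40, limma adjusted p = 0.0388), a subunit of the electron transfer flavoprotein. Lower were Ppargc1a (-0.36, limma adjusted p = 0.0380), Acsl1 (-0.38, limma adjusted p = 0.0186), Cpt1a (-0.33, limma adjusted p = 0.0347), Ehhadh (-0.46, limma adjusted p = 0.0220) and Acaa1a (-0.27, limma adjusted p = 0.0459). Acsl1 activates long-chain fatty acids, Cpt1a is the rate-limiting entry step of the carnitine shuttle, and Ehhadh and Acaa1a are peroxisomal beta-oxidation enzymes. Ehhadh lay on opposite sides of the reference at the 2 ages (-1.01 and 0.10), so this mean describes neither age alone. The other 3 Acsl1 probes were not all below the reference, as the 4 ranged from -0.38 to 0.09 in Cy/+.

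The second comparison set Cy/Cy against Cy/+ directly, where a fixed dye bias of a probe cancels. Of 37 members 0 passed, as did 0 of all probes (0%), with 1766 probes at an unadjusted p under 0.05 and a smallest limma adjusted p of 0.178. The 4 members with the smallest p were Cd36 (-0.64 ± 0.19 SE), Hadhb (-0.23 ± 0.11), Hadh (0.21 ± 0.11) and Acsl1 (0.28 ± 0.18), with limma adjusted p between 0.720 and 0.835. The members' median difference was -0.00, as was that of all probes (0.00). With 2 arrays on each side this does not show that the genotypes act alike.

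The clearest pattern among the members was with age. It was seen in the values and then described, so the counts below are a description. In 21 of the 37 members both mutant ratios at 3 days lay below both at 7 days, against 20.0% of all probes, and in 0 members they lay above, against 17.4% of all probes. In 11 members both mutants were below the reference at 3 days and above it at 7 days, against 5.04% of all probes, and 0 members did the reverse, against 4.14% of all probes. With each array centred on its median in place of loess, 25 members had no overlap, against 29.4% of all probes, and 1 had it the other way. Under that centring 4 crossed the reference (Cpt1a, Ucp2, Angptl4 and Vnn1), against 2.55% of all probes, and 6 crossed the median of all probes, against 2.88%. Both mutants of an age were set against a reference of the same label, so their ratios are not independent of each other.

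**Figure D2:**
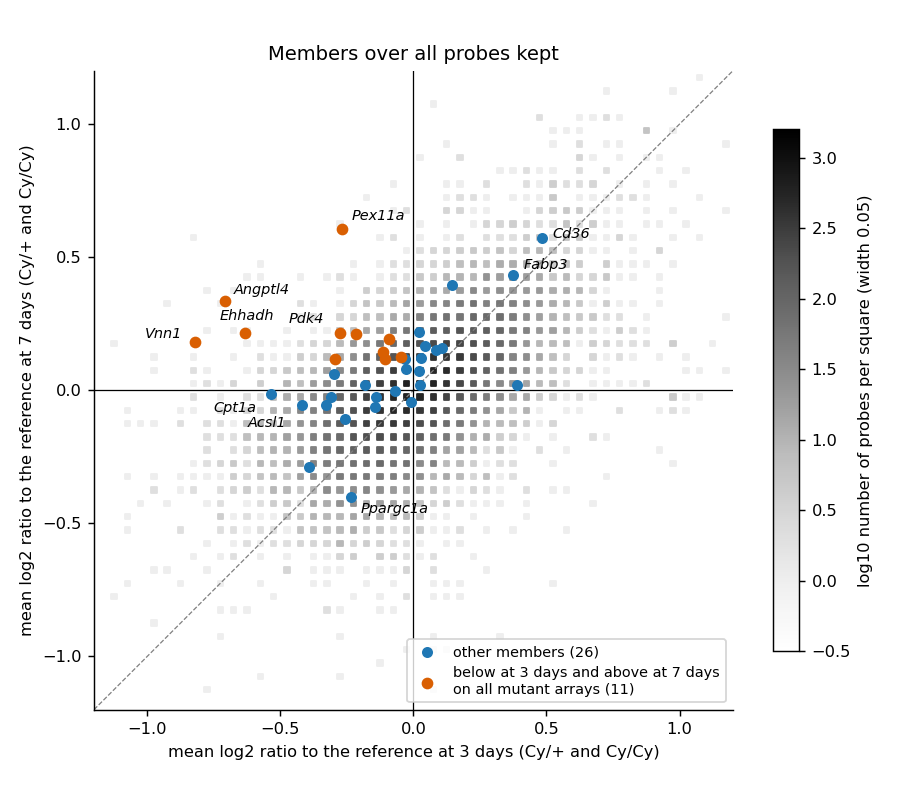
Mean log2 ratio of Cy/+ and Cy/Cy over the reference at 3 days (x) and at 7 days (y), with the members as points and the number of all probes per square in grey; the dashed line is equal ratios. The 11 orange members are at the upper left, with Angptl4 and Vnn1 about 1 log2 unit above the line.

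Among the PPAR targets outside beta-oxidation, Angptl4, a secreted inhibitor of lipoprotein lipase induced by fasting, gave the largest shift. Its log2 ratios were -0.70 and -0.71 at 3 days and 0.33 and 0.33 at 7 days, in Cy/+ and Cy/Cy. The genotypes were alike to within 0.01 at each age on these arrays. Vnn1, a pantetheinase that is a sensitive PPARA target, was at -0.74 and -0.90 at 3 days and 0.24 and 0.13 at 7 days. Pdk4, the kinase that shuts pyruvate out of oxidation, was at -0.31 and -0.24 and then 0.25 and 0.18. Its Cy3 signal was well above background on 3 of the 4 mutant arrays. The log2 reference level of Pdk4 on the 7-day arrays was 6.39 beside Cy/+ and 6.95 beside Cy/Cy. Ucp2, a mitochondrial carrier, was at -0.22 and -0.44 and then 0.03 and -0.14, without overlap but with Cy/Cy below the reference at both ages.

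All 4 peroxisomal members had a higher mean ratio at 7 days, with a median difference of 0.55. Ehhadh, the bifunctional enzyme, was at -1.01 in Cy/+ and -0.26 in Cy/Cy at 3 days, and at 0.10 and 0.33 at 7 days. Pex11a, which drives peroxisome division, was at -0.32 and -0.22 and then 0.69 and 0.52. Its second probe gave 0.10 and -0.02 at 3 days and 0.76 and 0.52 at 7 days, so the rise was seen with both probes and the position below the reference at 3 days with 1 of them. Hsd17b4, the enzyme for very long and branched chains, was at -0.12 and -0.11 and then 0.22 and 0.06. Acaa1a, the peroxisomal thiolase, was below the reference on all 4 arrays, at -0.33 and -0.18 and then -0.20 and -0.02. Its second probe gave -0.77 and -0.73 and then -0.31 and -0.14, without overlap between ages.

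The shift was smaller in the mitochondrial members. Of the 19 in the carnitine shuttle, beta-oxidation and electron transfer, 18 had a higher mean ratio at 7 days, with a median difference of 0.20, and 12 had no overlap between ages. In the carnitine shuttle, Cpt1a was at -0.67 and -0.40 at 3 days and 0.01 and -0.03 at 7 days. Cpt2, which acts on the inner membrane, was at -0.32 and -0.26 and then 0.05 and 0.19. Cpt1b, the muscle form, was below the reference on all 4 arrays (-0.52 to -0.15) by its brighter probe, and its second probe lay between -0.11 and 0.11. Slc25a20, the carnitine carrier, stayed between -0.07 and 0.02, and Crat, which forms acetylcarnitine, between -0.01 and 0.27.

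Of the 11 genes of mitochondrial beta-oxidation all had a higher mean ratio at 7 days, by 0.05 to 0.36. Eci1, an isomerase for unsaturated chains, had the largest difference, at -0.17 and -0.43 and then -0.03 and 0.16. Acaa2, the last thiolase of the spiral, was at -0.32 and -0.30 and then -0.07 and 0.02. Among the acyl-CoA dehydrogenases, Acadl, for long chains, was at -0.08 and -0.11 and then 0.25 and 0.14. Acadvl, for very long chains, was at -0.05 and -0.04 and then 0.12 and 0.13. The second Acadvl probe gave -0.13 and -0.09 and then 0.02 and -0.01, so with it Cy/Cy did not cross the reference. Acads, for short chains, was at -0.11 and -0.11 and then 0.06 and 0.17. Acadm, for medium chains, stayed between -0.12 and 0.11, and its reference level on the 3-day arrays differed by more than 1 log2 unit (12.38 beside Cy/+ and 13.54 beside Cy/Cy). Hadha and Hadhb, which start back to back, did not share a pattern: Hadha was at -0.19 and -0.18 and then -0.04 and 0.08, Hadhb at 0.15 and -0.09 and then 0.24 and 0.00. Etfdh, which passes the electrons to ubiquinone, was at -0.29 and -0.14 and then 0.19 and 0.23, while Etfb stayed between -0.04 and 0.09.

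Among the synthetases that activate fatty acids, Acsl1 was at -0.51 and -0.33 at 3 days and -0.25 and 0.13 at 7 days. Acsl3 ranged from -0.12 to 0.03, Acsl4 from 0.06 to 0.24 and Acsl5 from -0.17 to 0.03 over the 4 mutant arrays. In mitochondria, Acadsb, for branched chains, ranged from -0.04 to 0.09, Decr1, the reductase for unsaturated chains, from -0.02 to 0.17, and Hadh, the short-chain hydroxyacyl dehydrogenase, from -0.23 to 0.09. Etfa was at 0.43 and -0.14 at 3 days and 0.38 and 0.41 at 7 days, with the 3-day Cy/Cy array as the only one below the reference.

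A test of the age difference in ratio was added after these values were seen, with the genotypes as repeats within an age. It called 0 of 37 members, and 0.00707% of all probes (0.00353% in each direction), with 2040 probes at an unadjusted p under 0.05. The members' median difference was 0.17 against 0.00 for all probes, and 33 of 37 were above 0. The differences were 1.04 ± 0.10 (SE) for Angptl4, 1.00 ± 0.11 for Vnn1, 0.87 ± 0.11 for Pex11a and 0.49 ± 0.10 for Pdk4, with limma adjusted p of 0.0884, 0.118, 0.208 and 0.499. With genotype as a block, against 0.113% of all probes, Angptl4 (limma adjusted p = 0.0285) and Vnn1 (limma adjusted p = 0.0338) passed. With each single mutant array left out in turn, the difference ranged from 1.037 to 1.044 for Angptl4 and from 0.92 to 1.09 for Vnn1. For Pex11a it ranged from 0.79 to 0.96 and for Pdk4 from 0.46 to 0.53.

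Levels in each channel were set beside the ratios. The ages lay on different slides, so a change in level with age cannot be told apart from a change between slides. For Angptl4 the log2 intensity of the reference was 12.10 and 11.91 on the 3-day mutant arrays and 10.24 and 10.24 on the 7-day ones. Cy/+ went from 11.39 to 10.57 and Cy/Cy from 11.20 to 10.57. All pools were lower at 7 days, and the reference changed by -1.77 where Cy/+ changed by -0.82 and Cy/Cy by -0.63. The Cy3 channel of the arrays labelled +/+ gave like values for Angptl4, 12.11 at 3 days and 10.26 at 7 days. That channel did not match the Cy3 of the mutant arrays throughout. Its summed skeletal muscle level at 3 days was 29065, against 1488 beside Cy/+ and 1437 beside Cy/Cy. At 7 days it was 53166, against 2307 and 2301. The cause was not tested.

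For Vnn1 the reference changed by -1.47, Cy/+ by -0.57 and Cy/Cy by -0.36. Pex11a changed by -1.02 in the reference and by -0.02 and -0.27 in the mutants. Ehhadh changed by -1.29, -0.07 and -0.81. In these 4 genes the reference moved more than either mutant between ages. Over the 37 members the median change from 3 to 7 days was -0.22 in the reference, -0.02 in Cy/+ and -0.05 in Cy/Cy. In 25 members the change was higher (less negative or more positive) in both mutants than in the reference. On each array the Cy5 and Cy3 levels of a probe differ by its log2 ratio. Such comparisons of mutant with reference changes therefore restate the shift in ratio and are not separate support. The reference was lower at 7 days for 30 of 37 members in the Cy3 channel of the mutant arrays. For 28 of them it was also lower in the Cy3 channel of the arrays labelled +/+. These counts of level changes were not made over all probes, so they do not set the members apart from other probes.

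**Figure D3:**
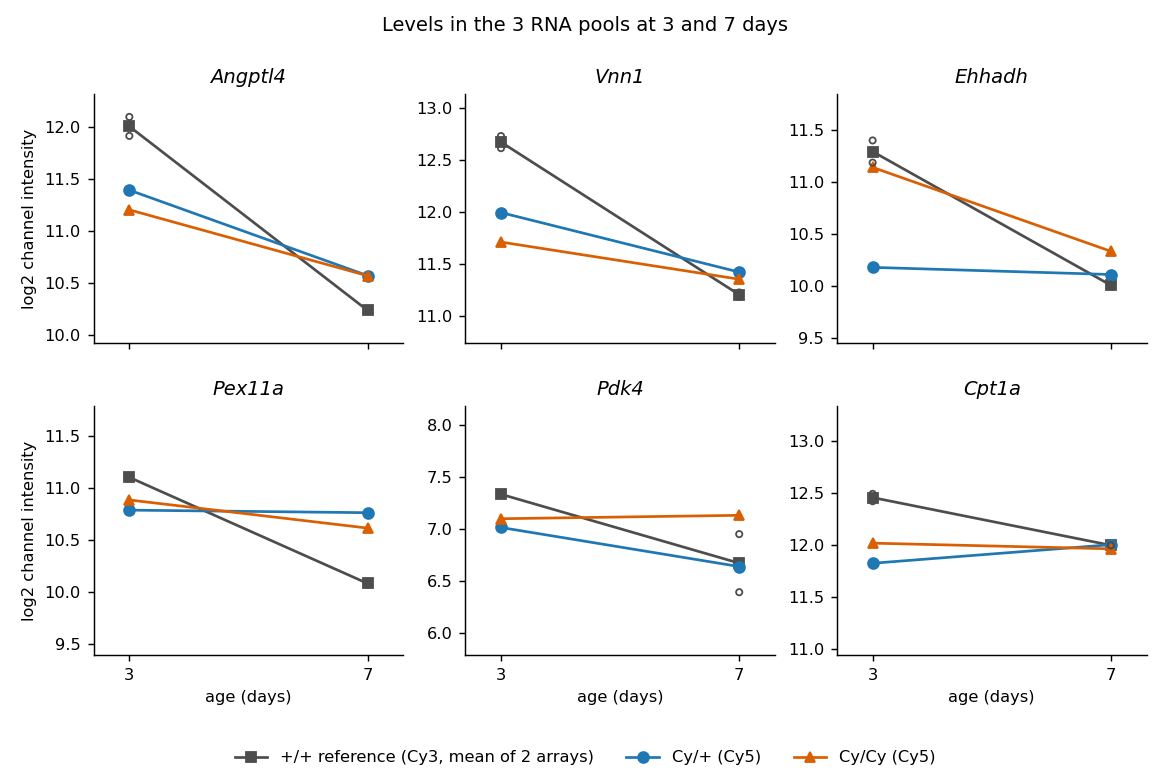
Log2 channel intensity at 3 and 7 days for 6 members, with squares for the +/+ reference (mean of 2 arrays, open circles for each), circles for Cy/+ and triangles for Cy/Cy; every panel spans the same range of log2 units. In Angptl4, Vnn1, Ehhadh and Pex11a the reference line is the steepest.

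A fit over these 3 pools with the pool as a block asked which members differed between 7 and 3 days in all pools. It called 4 of 37 members, and 12.2% of all probes, so the members' share was near the background. Angptl4 was lower at 7 days (-1.08 ± 0.21 SE, 0.475-fold, limma adjusted p = 0.0287), as were Cpt1b (-0.53 ± 0.11, limma adjusted p = 0.0330) and Acsl1 (-0.52 ± 0.10, limma adjusted p = 0.0258). All 4 Acsl1 probes were lower, between -0.54 and -0.38. Fabp3 was higher (0.30 ± 0.07, 1.23-fold, limma adjusted p = 0.0451). Of all probes 5.67% were lower and 6.49% higher. Without the reference pool 0 members passed (0.251% of all probes), without the Cy/+ pool 9 (22.8%) and without the Cy/Cy pool 1 (1.89%). Also, the mutant levels share arrays with the reference levels, so the 3 pools are not independent repeats.

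Markers of other cells shifted with age in the same ratios. Of the 15 proximal tubule markers 14 had a higher ratio at 7 days (median difference 0.23), and 7 had no overlap between ages, while 1 of 15 was lower at 7 days without overlap. The summed proximal tubule level in the mutants was 370241 and 399217 in Cy5 at 3 days, against 346677 and 310017 in Cy3, and 413041 and 422823 at 7 days, against 311146 and 298878. The sums were above the reference at both ages, but single markers were on both sides of it. On the 3-day Cy/+ array they ranged from -1.19 to 0.97 with a median of 0.06. On the 3-day Cy/Cy array they ranged from -0.36 to 0.83 with a median of 0.07. Adipose, skeletal muscle and macrophage markers went the other way, with a median difference of -1.29 over 6, -0.81 over 7 and -0.14 over 8 markers. Of these, 4, 6 and 3 were higher at 3 days without overlap. The remaining lists did not go that way. Lower at 3 days without overlap were 2 of 8 liver, 1 of 4 heart, 1 of 2 adrenal and 1 of 5 thick ascending limb markers. In each of these lists 0 were higher without overlap, and of 3 erythroid markers 0 were separated either way. The part of any of these in the members' shift was not tested.

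The arrays labelled +/+ were described apart because their pools go against the label. On them 8 of the 39 members were at least 2-fold from the reference in the same direction at both ages, 7 higher and 1 lower, against 12.3% of all probes (9.49% higher and 2.82% lower). Cd36 was at 2.75 and 2.88, Acsl1 at 2.06 and 2.10, Pparg at 1.94 and 1.65, Cpt1b at 1.61 and 2.30, Acsl5, an acyl-CoA synthetase, at 1.22 and 1.04, Acsl6, another synthetase best known from brain, at 2.98 and 1.13, and Ucp3, the uncoupling protein of muscle, at 2.88 and 2.42. The lower one was Ppargc1a, at -1.70 and -1.66. Acsl6 was not well above background in the reference or in either mutant, so only a bound can be given. On the mean of both ages the Cy5 level was at least 4.04-fold that of the reference, 3.94-fold that of Cy/+ and 4.28-fold that of Cy/Cy. The log2 Cy5 level of Acsl6 was 9.02 at 3 days and 7.26 at 7 days, so these bounds do not hold for 7 days alone. On the same mean, Ucp3 was at least 11.8-fold the level of Cy/Cy.

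**Figure D4:**
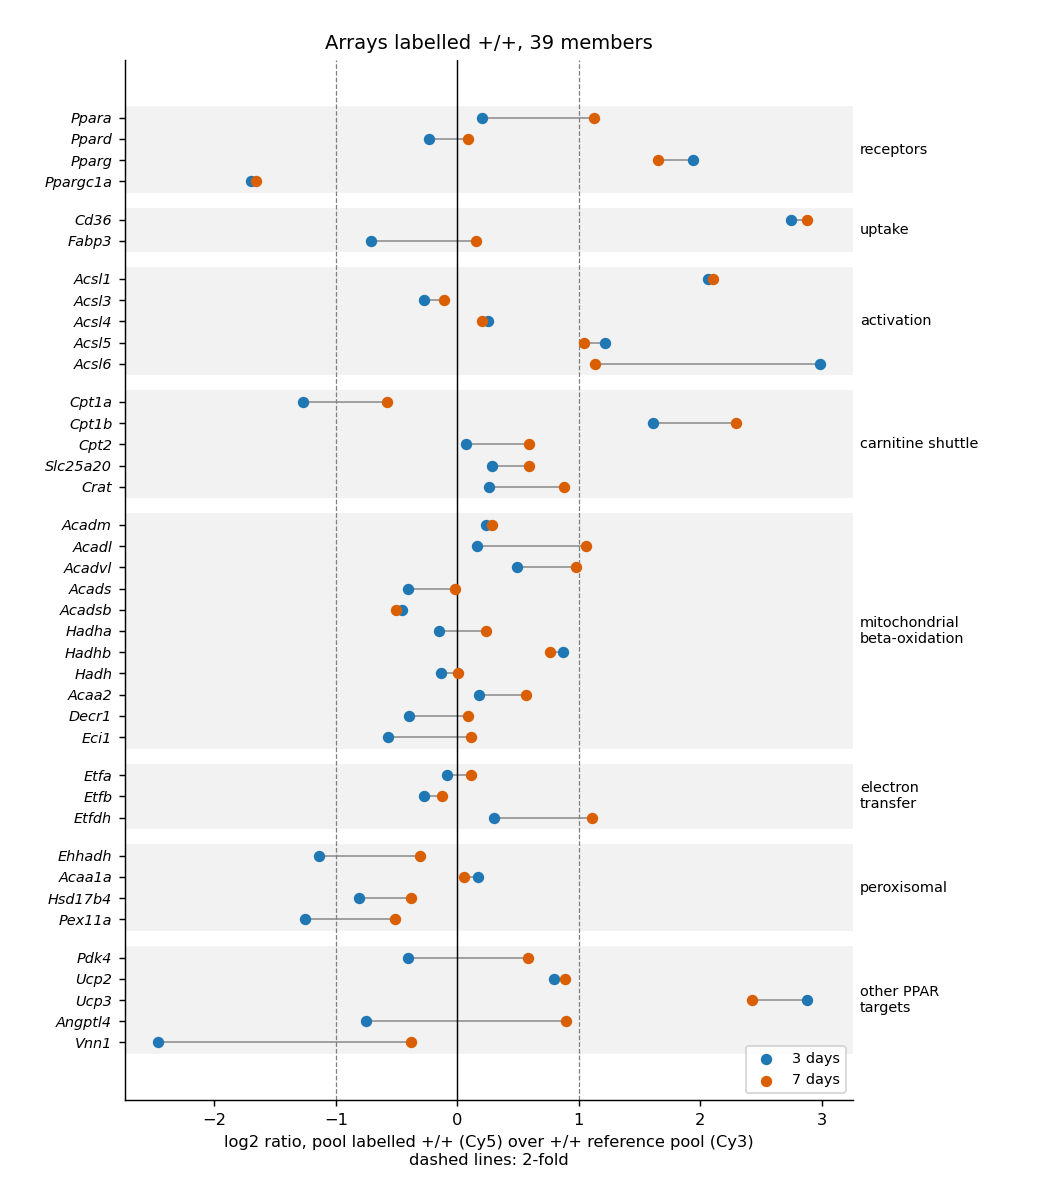
Log2 ratio of the pools labelled +/+ (Cy5) over the +/+ reference (Cy3) for the 39 members with a probe, blue at 3 days and orange at 7 days, joined by a line; dashed lines mark 2-fold. Cd36, Cpt1b and Ucp3 lie to the right, and Ppargc1a and Vnn1 reach farthest to the left.

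Beside these values, the summed adipose level on the same arrays was 115572 in Cy5 against 4430 in Cy3 at 3 days, and 142443 against 5999 at 7 days. The summed skeletal muscle level was 638810 against 29065 and 1079610 against 53166, and that of the proximal tubule 128739 against 523125 and 105575 against 443204. Their part in the members' ratios was not tested. The 11 members that crossed the reference with age also had a higher ratio at 7 than at 3 days here, as had 31 of all 37 members, against 50.5% of all probes. Vnn1 went from -2.46 to -0.38, Angptl4 from -0.75 to 0.89 and Pdk4 from -0.40 to 0.58. These ratios use a reference of the same label and age as the mutant ratios, so they are not separate support. For Vnn1, Angptl4 and Pdk4 the Cy3 level changed by -1.69, -1.85 and -0.76 from 3 to 7 days. In Cy5 the log2 level went from 10.32 to 10.72, from 11.36 to 11.15 and from 6.78 to 7.00.

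Relative to the arrays labelled +/+, in a fit with age as a term, 20 of 39 members passed in Cy/+, 6 higher and 14 lower, against 29.6% of all probes (11% and 18.7%). In Cy/Cy 19 passed, 6 higher and 13 lower, against 28.9% (10.6% and 18.4%). Without age as a term 12 passed in each, against 27.4% of all probes in Cy/+ and 26.9% in Cy/Cy. Among those lower in both mutants were Acsl1 (-2.46 ± 0.14 SE in Cy/+, limma adjusted p = 0.000317), Cpt1b, Cd36 and Pparg, and among those higher in both were Ppargc1a (1.32 ± 0.16, limma adjusted p = 0.00312) and Pex11a (1.07 ± 0.13, limma adjusted p = 0.00337). Acsl6 and Ucp3 passed as lower too, with few or no mutant signals well above background, and Acsl6 did not pass in Cy/+ without the 3-day (limma adjusted p = 0.175) or the 7-day Cy/+ array (limma adjusted p = 0.0787). Mitochondrial members made up 9 of the 20, with 7 lower (Cpt1b, Cpt2, Slc25a20, Acadvl, Hadhb, Acaa2 and Etfdh) and Cpt1a and Acadsb higher. The probes of Cpt1b differed in size (-2.30 and -0.73 in Cy/+), and those of Acaa1a in direction (-0.38 and 0.33). No direction here can be assigned to the mutation, because the arrays they are set against go against their label.

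Further genes of the same pathways that are not on the list were read beside the members. Of 60 such genes 42 had a probe, and all 42 were tested. In Cy/+ 8 of the 42 passed, 6 higher and 2 lower, against 9.78% of all probes (5.67% and 4.11%). The 4 largest were Me1, the malic enzyme that supplies NADPH (0.95 ± 0.09 SE, limma adjusted p = 0.00610), Lpl, lipoprotein lipase (0.63 ± 0.09, limma adjusted p = 0.0147), Bdh1, which interconverts ketone bodies (0.60 ± 0.12, limma adjusted p = 0.0300), and Amacr, the racemase for branched fatty acids (-0.44 ± 0.09, limma adjusted p = 0.0370). In Cy/Cy 0 passed. Between 7 and 3 days over the 3 pools 8 of the 42 passed, 2 higher and 6 lower, against 12.2% of all probes (6.49% and 5.67%). Among them were Cyp4a12, a fatty acid omega-hydroxylase (-0.55 ± 0.13, limma adjusted p = 0.0449), and Amacr (0.45 ± 0.08, limma adjusted p = 0.0232).

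The mutant ratios of these 42 genes also lay lower at 3 than at 7 days without overlap in 20 cases, and higher in 4, against the 20.0% and 17.4% of all probes given above. By group the counts were 9 and 2 of 13 peroxisomal genes, 8 and 0 of 15 mitochondrial genes, and 3 and 2 of 14 other PPAR targets and lipid handling genes. Cyp4a12 was at -0.25 and -0.01 and then 0.32 and 0.39.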

How the data were processed

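RNA pools of 3 genotypes at 2 ages were measured on 6 arrays of 2 colours. Per the file headers, Agilent Feature Extraction 9.5.1.1 was used and probe coordinates are of build rn3. The deposited mean signals and local backgrounds are intensity values, without normalization, per the file headers. A log10 ratio of Cy5 over Cy3, after dye normalization by the software, was deposited too. It is identical to the value table of the series (largest difference 0). In R 4.3.3 with limma 3.58.1, signals were corrected by normexp (offset 50) and loess within each array, with flagged spots at weight 0, and the spots of a probe were averaged. A probe was kept if at least 2 arrays had it well above background in one of the channels. Ratios were fitted with lmFit and eBayes over the 4 mutant arrays, without age (2 residual degrees of freedom), or over 6 arrays with age, and adjusted by Benjamini-Hochberg over all probes. A test against 0 leaves out the spread of the reference and cannot separate dye bias from genotype. Channel levels were set by Aquantile. A gene with several probes was represented by its brightest probe. "At least" folds compare the bright mean with a detection bound: on each array, the dim probe's signal or the faintest signal called well above background, whichever is higher. The fits were tested on simulated data. Members, lists and the added comparison were chosen with earlier results of these data known; all members count as named genes, with statistics for those called or, where none was, the 4 with the smallest p, and at most 4 called pathway genes for each comparison. Some pathway genes that this rule would name are not reported here. Values given are log2, computed here from the deposited intensities. Alternatives were another normalization, another filter, the age, genotype or pool term, and leaving out each array. Age numbers pair the arrays because, per the labels and file headers, arrays of an age share slide and reference label.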

Additional observations from a re-analysis of the deposited data

Results flagged for a closer look

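In 11 members, against 5.04% of all probes, the mutant ratios to the reference had opposite signs at the 2 ages. They were below it in both genotypes at 3 days and above it in both at 7 days. The mean log2 ratio at 7 days minus that at 3 days was 1.04 for Angptl4, 1.00 for Vnn1, 0.87 for Pex11a, 0.85 for Ehhadh, 0.49 for Pdk4, 0.43 for Etfdh, 0.41 for Cpt2, 0.29 for Acadl, 0.26 for Hsd17b4, 0.22 for Acads and 0.17 for Acadvl. The difference itself was tested with limma after the values were seen, and 0 of the 11 passed; with genotype as a block Angptl4 and Vnn1 did. The genotypes of an age share a slide and a reference label. For Pex11a and Acadvl the second probe did not show the crossing in both genotypes. With median centring in place of loess, only Angptl4 and Vnn1 of these 11 crossed the reference. Set against the median of all probes under that centring, Cpt2, Ehhadh and Pex11a crossed too.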

How the results depend on the processing

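Members called in Cy/+ against the reference (2) were 0 with the scanner software's log ratio, 23 with median centring, 1 with scaling between arrays, 8 with the age term (replicate block), and 1 to 4 with one array left out. Median centring moved the median of all probes by 0.23, and that of the members to 0.54. In Cy/Cy against the reference (0) it gave 20 members, turned Cpt1b to 0.18 and Ppard to -0.0089, and moved the median of all probes to 0.21. Against the arrays labelled +/+, Cy/+ (20) had 12 with scaling and 12 without the age term (no replicate block), and 8 to 24 with one array left out; Cy/Cy (19) had 11, 12 and 8 to 24. Between 7 and 3 days (4) the count was 2 without the filter on dim probes, 1 without the pool term (no replicate block) and 0 to 9 with one pool left out. For the difference in ratio between ages (0) it was 2 with the genotype term (replicate block) and 0 to 4 with one array left out. The count of members that crossed the reference (11) was 11 with the software's log ratio and 10 with the strict filter. It was 4 with median centring and 6 when that was set against the median of all probes. Cpt1a and Ucp2 of those 4, and Cpt1a of those 6, were not among the 11. No share of all probes stands beside these counts, so they do not set the members apart from other probes. The causes were not tested. With 2 arrays for each genotype and pooled RNA, differences between animals were not measured, and signals near background, as for Pdk4, limit the size of a ratio.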

Other observations

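Of the 3 members without a probe under the listed names, each had 1 probe under an older name by its RefSeq accession, found after the values of the members were known. Acot1, a cytosolic acyl-CoA thioesterase carried on the array as Cte1, had log2 ratios of 0.11 and -0.16 at 3 days and 0.78 and 0.58 at 7 days in Cy/+ and Cy/Cy. Acot2, its mitochondrial relative carried as Mte1, had 0.19 and -0.23 and then 0.35 and 0.35. Cyp4a1, a fatty acid omega-hydroxylase carried as Cyp4a22, had -0.28 and 0.12 and then 0.62 and 0.89. In all of these both 7-day ratios were above both 3-day ratios. These gene families hold close copies, so the probes may read more than 1 gene.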
